A study of Mus musculus with 24 samples.

Results

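A set of 236 lentiviral DNA barcodes recurred at low level in more than 1 recipient mouse, among 327974 distinct sequences counted in 24 files. Members were chosen by their shares of reads: the highest share over the 8 populations of a mouse had to reach 0.01% in 2 or 3 mice, and every file had to stay under 1%. That these barcodes recur and are rare is therefore a property of the choice, and their levels are given as a description. They made up 5.63% of the 4190 barcodes that reached 0.01% in some mouse and stayed under 1% in every file. Of the members, 224 were found in 2 mice and 12 in all 3, while 3954 barcodes reached 0.01% in 1 mouse only.

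The 3 recipients were CD45.2 males aged 5 weeks, labelled as strain C57BL/6J, and all had received 9 Gy of whole-body irradiation and the same kind of graft. Cultured stem cells from C57BL/6 marrow had been infected with the barcoding virus pBC008 on day 5 after plating, and GFP+ Sca1+ cKit+ cells were sorted 4 days after infection and injected with rescue progenitors. After 2 months, monocytes, neutrophils, B cells and T cells came from blood, Ccr2hi and Ccr2lo macrophages from the heart, and M1 and M2 macrophages from the kidney, with 1 file for each population of each mouse. Each mouse is 1 replicate, and there was no untreated animal. The labels give neither the markers that defined the populations nor the number of cells sorted, and barcode counts hold no marker genes with which a population could be checked. Rescue cells and surviving host cells carry no barcode and are not seen. The labels also do not say whether the grafts came from 1 infected culture. A sequence taken more than once from the virus library and daughter cells of 1 founder divided between recipients therefore cannot be told apart, and the virus library itself was not analysed here.

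In lentiviral barcoding, a random sequence is inserted into the genome of a stem cell and copied into all of its descendants, so that cells with the same sequence are read as one clone. That reading fails when a sequence marks several founders, which is called a collision. Reads can also be assigned to the wrong sample when DNA or index primers are carried between libraries, and such reads follow the abundance of their source. Monocytes and neutrophils are short-lived myeloid cells, B and T cells are lymphocytes that can persist for long, and tissue macrophages can be renewed from blood monocytes. Ccr2 is a chemokine receptor with which monocytes leave the marrow and enter tissue.

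Files held 6808221 to 15745444 reads, so 0.01% stood for 681 to 1575 reads, and a barcode with 0 reads could have had a share of at most 4.41e-05% where depth was lowest. The highest share of a member in a mouse rested on 1113 to 116466 reads, with a 95% Wilson interval of 0.572% to 5.88% of the value to each side. Intervals and limits cover counting error only, since PCR reads without molecular identifiers are not independent molecules.

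Each barcode is 52 bases long, and the bases alternate between G or C and A or T. The sequences are synthetic and have no position in a genome. Names run first by the number of mice and then by the level in the mouse with the second highest share, called the second mouse here, while the mouse with the highest share is called the higher mouse. Capitals mark a base that breaks the alternation. The first set holds the 10 members of 3 mice with the highest level in the second mouse, because they are the most widely found.
RB001: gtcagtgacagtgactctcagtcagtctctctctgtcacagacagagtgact
RB002: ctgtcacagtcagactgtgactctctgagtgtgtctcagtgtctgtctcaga
RB003: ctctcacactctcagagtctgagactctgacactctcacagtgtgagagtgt
RB004: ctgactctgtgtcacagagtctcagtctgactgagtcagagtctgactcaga
RB005: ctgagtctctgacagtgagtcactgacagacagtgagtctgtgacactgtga
RB006: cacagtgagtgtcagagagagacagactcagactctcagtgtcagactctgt
RB007: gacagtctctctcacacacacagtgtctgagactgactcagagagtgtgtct
RB008: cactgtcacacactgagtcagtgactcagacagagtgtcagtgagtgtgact
RB009: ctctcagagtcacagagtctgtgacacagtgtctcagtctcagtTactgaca
RB010: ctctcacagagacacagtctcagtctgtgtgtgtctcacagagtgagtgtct

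The next set holds the 10 members of 2 mice with the highest level in the second mouse, because they lie furthest above the limit of 0.01%.
RB013: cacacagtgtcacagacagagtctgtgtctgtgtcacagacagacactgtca
RB014: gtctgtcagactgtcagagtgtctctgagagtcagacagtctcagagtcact
RB015: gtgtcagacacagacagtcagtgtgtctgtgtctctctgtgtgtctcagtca
RB016: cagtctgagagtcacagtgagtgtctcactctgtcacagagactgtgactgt
RB017: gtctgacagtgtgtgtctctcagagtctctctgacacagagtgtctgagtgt
RB018: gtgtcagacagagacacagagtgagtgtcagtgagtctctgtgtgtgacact
RB019: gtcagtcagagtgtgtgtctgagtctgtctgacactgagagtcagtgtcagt
RB020: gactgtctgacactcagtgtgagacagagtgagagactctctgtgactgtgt
RB021: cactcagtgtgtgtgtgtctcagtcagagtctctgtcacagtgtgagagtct
RB022: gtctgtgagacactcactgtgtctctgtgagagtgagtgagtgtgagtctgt

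A further set holds the 5 members with the largest fold between the higher and the second mouse.
RB229: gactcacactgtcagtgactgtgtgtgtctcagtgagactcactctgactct
RB138: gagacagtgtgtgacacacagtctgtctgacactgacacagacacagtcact
RB148: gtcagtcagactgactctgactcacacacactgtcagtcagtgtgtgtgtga
RB200: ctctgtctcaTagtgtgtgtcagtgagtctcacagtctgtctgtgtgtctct
RB094: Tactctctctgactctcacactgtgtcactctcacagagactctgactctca

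The last set holds the 5 members with the smallest fold, for comparison with the one before.
RB184: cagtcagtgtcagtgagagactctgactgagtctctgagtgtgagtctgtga
RB190: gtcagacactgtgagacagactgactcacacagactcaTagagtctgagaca
RB101: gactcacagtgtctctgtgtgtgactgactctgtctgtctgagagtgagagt
RB139: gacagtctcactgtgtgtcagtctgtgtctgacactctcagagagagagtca
RB140: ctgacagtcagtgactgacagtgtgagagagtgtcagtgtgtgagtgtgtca

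RB001, RB002 and RB003 were the only members at 0.01% or more in all 24 files; they were singled out after their values were seen. Any other member reached that level in at most 14 files, and the median over members was 5 files. In mouse 1, RB001 made up 0.360% of monocyte, 0.0963% of neutrophil, 0.0303% of B cell, 0.0409% of T cell, 0.229% of Ccr2hi, 0.102% of Ccr2lo, 0.260% of M1 and 0.0680% of M2 reads. In mouse 2 it made up 0.191%, 0.201%, 0.0289%, 0.0258%, 0.126%, 0.292%, 0.204% and 0.0934% of the same populations, in that order. In mouse 3 the shares were 0.223%, 0.245%, 0.0514%, 0.0294%, 0.225%, 0.245%, 0.138% and 0.0494%. RB001 was lowest in B cells, T cells and M2 macrophages in each mouse, and the ranges of the 3 mice overlapped.

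RB002 ranged from 0.0147% to 0.220% in mouse 1 with a median of 0.114%, from 0.0201% to 0.285% in mouse 2 with a median of 0.0933%, and from 0.0110% to 0.334% in mouse 3 with a median of 0.0692%. RB003 ranged from 0.0179% to 0.205% with a median of 0.103%, from 0.0183% to 0.166% with a median of 0.0980%, and from 0.0240% to 0.180% with a median of 0.107%. For both barcodes the ranges of the 3 mice overlapped. Over the 24 files, log10 shares of the 3 barcodes correlated pairwise with Pearson r of 0.871 to 0.912, a description in which the files share mice and populations.

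Summed over these 3 barcodes, the share was 0.633% ± 0.159 in Ccr2lo macrophages, 0.560% ± 0.152 in monocytes, 0.480% ± 0.145 in Ccr2hi macrophages, 0.411% ± 0.104 in M1 macrophages and 0.392% ± 0.113 in neutrophils (SD, n = 3). It was 0.139% ± 0.0377 in M2 macrophages, 0.0837% ± 0.0266 in B cells and 0.0828% ± 0.0254 in T cells (SD, n = 3). Neighbours within the first 5 populations lay within their spread of each other, and so did B and T cells. The lowest file of the first 5 populations held 0.261% and the highest file of the other 3 held 0.169%, so they did not overlap. The split into 5 and 3 populations was made by these same shares, so this gap is a description only. The mean log10 share of the 3 barcodes over the 8 populations correlated with r = 0.873 between mice 1 and 2, 0.829 between mice 1 and 3 and 0.969 between mice 2 and 3. Among all sequences, 5 reached 0.01% in all 24 files, and the 2 that are not members reached 1%.

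The other members of 3 mice were confined to fewer populations. RB004 was highest in B cells of each mouse, with 0.136%, 0.0543% and 0.168% in mice 1, 2 and 3. Its Ccr2lo shares were 0.0924%, 0.0494% and 0.0841%, its Ccr2hi shares 0.0893%, 0.0167% and 0.0541%, and its M2 shares 0.0253%, 0.0279% and 0.111%. In neutrophils and T cells it stayed between 0.000143% and 0.00170%. B cells and these 3 macrophage populations thus held RB004 in every recipient, and in mouse 1 monocytes (0.0157%) and M1 macrophages (0.0113%) held it too.

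RB005 was present in 12 files. Its monocyte shares were 0.0544%, 0.0247% and 0.0483% in mice 1, 2 and 3, and its B cell shares 0.00142%, 0.00371% and 0.00444%. In M1 macrophages it held 0.0211% in mouse 1 and 0.0302% in mouse 2, but 0.000150% in mouse 3. Its neutrophil shares were 0.00674%, 0.00822% and 0.00564%. Monocytes and Ccr2hi macrophages were the populations in which RB005 passed 0.01% in all 3 mice.

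RB006 reached 0.0416% in B cells of mouse 1 and only 0.000104% in those of both other mice. Its Ccr2hi shares were 0.0231%, 0.0513% and 0.0374% in mice 1, 2 and 3. RB007 and RB008 passed 0.01% only in Ccr2hi, Ccr2lo or M2 macrophages, with highest shares of 0.0332%, 0.0290% and 0.0467% for RB007 and of 0.0272%, 0.0147% and 0.0407% for RB008. Macrophages of heart or kidney thus held these 3 members in every mouse, and B cells held RB006 in 1 mouse.

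RB009, which has T at position 45 counted from the first base listed, was highest in monocytes of mouse 1 (0.0120%), M1 macrophages of mouse 2 (0.0259%) and monocytes of mouse 3 (0.0277%). In mouse 2 its monocyte share was 2.07e-05%. RB010 was highest in T cells of mouse 2 (0.190%), but held 5.12e-05% and 0.000126% of T cell reads in mice 1 and 3. There its highest shares were 0.0189% in M2 and 0.0216% in Ccr2lo macrophages, a fold of 8.80 between the higher and the second mouse. The leading population of RB010 thus differed in each mouse. For RB009 it was the same in mice 1 and 3 and differed in mouse 2.

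Among members of 2 mice, the population in which a barcode was highest could be the same or not. RB015 was highest in B cells of mouse 2 (0.820%) and of mouse 3 (0.186%), and RB016 in B cells of mouse 1 (0.320%) and of mouse 3 (0.166%). RB017 held 0.0925% of Ccr2hi, 0.105% of Ccr2lo and 0.160% of M2 reads in mouse 2 and 0.160%, 0.172% and 0.0960% in mouse 3, and it was under 0.01% in all blood files. RB015 was also at 0.0352% in monocytes, 0.0208% in neutrophils and 0.0181% in T cells of mouse 2, against 0.00122%, 0.00794% and 0.000513% in mouse 3. RB016 was at 0.0141% in monocytes and 0.0156% in neutrophils of mouse 1, against 0.00519% and 0.000271% in mouse 3. The leading population of RB015 and RB016 was thus the same in both mice, but the blood myeloid cells passed 0.01% in 1 mouse only.

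RB014 was highest in macrophages of mouse 1, with 0.348% of Ccr2hi, 0.477% of Ccr2lo and 0.143% of M2 reads, against 0.000297% of monocyte and 0.000338% of neutrophil reads. In mouse 3 the shares were 0.328% in neutrophils, 0.306% in M1 macrophages and 0.201% in monocytes, with 0.00769% of Ccr2hi and 0.000709% of Ccr2lo reads. Monocytes, neutrophils and M1 macrophages were thus low in mouse 1 and high in mouse 3, and cardiac macrophages the reverse. M2 macrophages held 0.0251% in mouse 3, B cells held 0.0228% in mouse 1 and 0.00190% in mouse 3, and T cells were under 0.01% in both. In mouse 2, RB014 lay between 0.000256% and 0.000683%.

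RB022 was highest in M1 macrophages (0.566%), neutrophils (0.492%) and monocytes (0.360%) of mouse 2. In mouse 3 it was highest in B cells (0.105%), with 0.000334% of neutrophil and 0.000692% of monocyte reads. RB018 was highest in monocytes of mouse 1 (0.151%) and in B cells of mouse 3 (0.313%), where monocytes held 0.000117%. As for RB014, the leading blood cells of the 2 mice belonged to different lineages.

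RB013 held 0.495% of B cell reads in mouse 1 and 0.00371% in mouse 2, while Ccr2hi, Ccr2lo and M2 macrophages held 0.1995%, 0.290% and 0.408% in mouse 1 and 0.636%, 0.563% and 0.344% in mouse 2. RB021 was present in 14 files, led by T cells of mouse 1 (0.492%) and neutrophils of mouse 2 (0.134%), where T cells held 0.00157%. RB019 and RB020 were led by macrophages in both of their mice, with highest shares of 0.147% and 0.233% for RB019 and 0.201% and 0.138% for RB020. Macrophages thus held all 4 of these members in both mice, and lymphocytes passed 0.01% in mouse 1 only.

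Over all members, the share in the higher mouse had a median of 0.0743% (quartiles 0.0410% and 0.172%, range 0.0147% to 0.996%). In the second mouse it had a median of 0.0260% (quartiles 0.0159% and 0.0407%, range 0.0101% to 0.495%). The fold between them had a median of 2.38 (quartiles 1.45 and 4.89), with 92 members (39.0%) within 2-fold, 216 (91.5%) within 10-fold and 20 above 10-fold. The limits of the choice allow at most a fold of 100 and pull the levels together, so nearness in level is no sign of agreement. Across the members that 2 mice had in common, the highest log10 shares correlated with r = 0.25 for mice 1 and 2 (n = 79), 0.15 for mice 1 and 3 (n = 109) and 0.04 for mice 2 and 3 (n = 72).

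The largest fold was that of RB229, a barcode at 0.562% in B cells of mouse 2 and at most 0.0115% in mouse 3, in Ccr2hi macrophages. RB138, RB148, RB200 and RB094 followed with folds of 43.9, 41.6, 39.0 and 31.2. RB094 held 0.996% of neutrophil, 0.806% of monocyte and 0.694% of M1 reads in mouse 3. In mouse 2 it held 0.0319% of Ccr2lo, 0.0292% of B cell and 0.0203% of Ccr2hi reads, with 0.000710% of neutrophil and 0.000611% of monocyte reads. The populations that held it in mouse 2 were thus not those in which it was most abundant in mouse 3. RB138 was held mainly by the same 3 macrophage populations in both mice, with 0.973% of Ccr2hi, 0.907% of Ccr2lo and 0.365% of M2 reads in mouse 3 and 0.0191%, 0.0221% and 0.0144% in mouse 2.

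The smallest folds were those of RB184, RB190, RB101, RB139 and RB140, at 1.001, 1.01, 1.02, 1.03 and 1.06. RB184 was at 0.0153% in Ccr2hi macrophages of mouse 1 and in Ccr2lo macrophages of mouse 2. RB139 was at 0.0220% in M2 macrophages of mouse 1 and at 0.0226% in Ccr2hi macrophages of mouse 3, where M2 macrophages had 0 reads. Equal highest shares could therefore lie in different populations.

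At the lower limit, the members just inside had second shares of 0.0101% (RB236 and RB235) and 0.0102% (RB234), and the barcodes just outside had 0.00972%, 0.00971% and 0.00961%. At the upper limit, the members just inside reached 0.996% (RB094), 0.973% (RB138) and 0.885% (RB148), and the barcodes just outside 1.02%, 1.04% and 1.10%.

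Cardiac and renal M2 macrophages held most of the members, but their files also held the most barcodes. A file of these populations held 833 to 1293 barcodes at 0.01% or more and under 1%, against 42 to 408 in the other files. The member counts follow these totals, so they are no trait of the members. At 0.01% or more, 124.3 ± 22.7 members were present in M2, 122.0 ± 10.4 in Ccr2lo and 116.3 ± 12.9 in Ccr2hi macrophages (SD, n = 3). B cells held 42.7 ± 9.45, monocytes 17.7 ± 4.73, M1 macrophages 13.7 ± 1.15, neutrophils 11.7 ± 1.53 and T cells 8.0 ± 1.73 (SD, n = 3). M2, Ccr2lo and Ccr2hi macrophages did not differ beyond their spread, and the ranges of monocytes and M1 macrophages overlapped, while B cells lay above monocytes in all files. Of the barcodes under 1% present in a file, members were 11.6% ± 1.29 of those present in M2, 11.5% ± 1.40 in Ccr2lo, 11.6% ± 1.23 in Ccr2hi, 13.5% ± 1.16 in B cells, 13.3% ± 1.07 in T cells, 15.8% ± 3.09 in monocytes, 16.4% ± 5.27 in neutrophils and 17.8% ± 9.14 in M1 macrophages (SD, n = 3), with 7.39% to 24.5% over all files.

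Summed over members, the share of reads was 8.93% ± 1.72 in Ccr2lo, 8.19% ± 1.68 in Ccr2hi and 7.62% ± 1.83 in M2 macrophages (SD, n = 3). It was 4.51% ± 1.46 in B cells, 1.71% ± 0.258 in monocytes, 1.40% ± 0.700 in neutrophils, 1.28% ± 0.419 in M1 macrophages and 1.24% ± 0.623 in T cells (SD, n = 3). RB001, RB002 and RB003 held 20.3% to 64.9% of this sum in M1 macrophages, 24.6% to 43.5% in monocytes and 23.1% to 41.2% in neutrophils. In T cells they held 4.54% to 12.9%, and elsewhere 0.992% to 8.79%. The sums of the myeloid files and of M1 macrophages thus rested to a good part on these 3 barcodes.

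A member was at 0.01% or more in a median of 3 populations of its higher mouse and 2 of its second mouse. In the second mouse 85 members (36.0%) were present in 1 population only, and 151 (64.0%) in 2 or more. Of the barcodes of 1 mouse, 28.0% were present in 1 population only. Without RB001, RB002 and RB003, no member was present in more than 6 populations of its second mouse. Presence in both mice thus mostly did not rest on a single file, although leaving out 1 file removed up to 17 members, the most for M2 macrophages of mouse 3.

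By lineage, 144 members were present in macrophages only, 91 in macrophages and blood and 1 in blood only in the higher mouse. In the second mouse these numbers were 189, 39 and 8. The class was the same in both mice for 152 members (64.4%), of which 126 were in macrophages only. Of barcodes of 1 mouse, 76.8% were in macrophages only, 21.1% in both and 2.05% in blood only.

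The population with the highest share was the same in both mice for 59 members, or 25% of them. It was Ccr2hi, Ccr2lo or M2 in both mice for 177. Ranked over the 8 populations, the profiles of the 2 mice had a median Spearman rho of 0.64 (quartiles 0.45 and 0.79, range -0.71 to 0.97), and 13 members had a negative value. The same 3 populations also led in most barcodes of 1 mouse, with M2 at 33.6%, Ccr2lo at 30.7% and Ccr2hi at 23.6% of them. How often 2 mice would match from such shares alone was not computed, here or for the class, so these counts are no sign of agreement. The rho that such shares alone would give was not computed either, so the median of 0.64 is no sign of agreement.

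Populations that held few members let the 2 mice be compared more closely. Of 84 members present in B cells of the higher mouse, 22 (26.2%) were also present in B cells of the second mouse, against 18 of 152 (11.8%) of those absent there. In monocytes the shares were 6 of 34 (17.6%) against 8 of 202 (3.96%), in neutrophils 4 of 23 (17.4%) against 5 of 213 (2.35%), in T cells 3 of 17 (17.6%) against 1 of 219 (0.457%), and in M1 macrophages 7 of 24 (29.2%) against 6 of 212 (2.83%). Without RB001, RB002 and RB003, the first of each pair became 19 of 81 (23.5%) in B cells, 3 of 31 in monocytes, 1 of 20 in neutrophils, 0 of 14 in T cells and 4 of 21 in M1 macrophages. In M2 macrophages 143 of 207 (69.1%) were set against 14 of 29 (48.3%), in Ccr2lo 136 of 202 (67.3%) against 20 of 34 (58.8%), and in Ccr2hi 120 of 201 (59.7%) against 20 of 35 (57.1%). These counts are descriptions, and in neutrophils and T cells they rested mostly on the 3 barcodes of all files.

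Barcodes of 1 mouse also had reads in the files of other mice, and 0 of 3954 had none there. In a file of another mouse, such barcodes had a median of 106 to 481 reads per 1000000 reads of their 16 source files, and these reads made up 0.0957% to 0.417% of the file. Reads and source reads correlated on a log10 scale with r of 0.676 to 0.885 over the barcodes, and 9.44% to 34.9% of barcodes had 0 reads in a given file. A low background that followed the abundance in other mice was therefore present in all files.

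The shares of members were set beside this background. In the next mouse, barcodes of 1 mouse had a median of 0.00157 times their highest share, and members of 2 mice had 0.00162 times theirs in the mouse where they missed the threshold. In the second mouse, members had a median of 0.421 and at least 0.0204 times their highest share. The 95th percentile of the background ratio was 0.0103 and its highest value 0.868 among barcodes of 1 mouse. The threshold of the choice itself keeps the second share high, and 181 barcodes of 1 mouse (4.58%) also reached a ratio of 0.0204.

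Set against the reads expected in each file from the median background rate, members had a median excess of 612-fold in the second mouse, with a lowest value of 26.3-fold. This follows from the choice, which required 0.01% there, and is no evidence on the source of the reads. In the mouse under the threshold the median was 1.61-fold, and 213 of 224 members were under 10-fold. Of the barcodes of 1 mouse, 234 of 3954 had an excess of 10-fold or more in the next mouse, and of the barcodes reaching 1%, 28 of 154 did. Of the 154 barcodes that reached 1%, which are the richest sources of background, the next mouse had a median of 0.00184 times the highest share. Of these, 55 (35.7%) passed 0.01% in another mouse, and 8 had a ratio of 0.02 or more. Whether single files received larger amounts from another library was not tested.

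Recurrence was set beside the level in a mouse, with a barcode counted once in each mouse where it reached 0.01%. A member therefore counts 2 or 3 times, so these percentages lie above the 5.63% that members made up of distinct barcodes. Of barcodes with a highest share of 0.01% to 0.02% in a mouse, 8.48% of 1180 reached 0.01% in another mouse. This was 11.9% of 1474 at 0.02% to 0.05%, 11.1% of 881 at 0.05% to 0.1%, 11.6% of 485 at 0.1% to 0.2%, 13.1% of 313 at 0.2% to 0.5% and 13.3% of 105 at 0.5% to 1%. In that last range the values were 4.88%, 17.1% and 21.7% in mice 1, 2 and 3, and in mouse 1 it was 7.38% at 0.01% to 0.02%. The last range held 14 recurring cases over all mice, so its values for single mice rest on few barcodes. Pairs of mice shared 79 barcodes (4.44% of those in mouse 1 and 6.54% of those in mouse 2), 109 (6.13% of mouse 1 and 7.51% of mouse 3) and 72 (5.96% of mouse 2 and 4.96% of mouse 3).

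Whether recurrence in 2 mice went with presence in the remaining mouse was examined by holding out each mouse in turn, choosing barcodes without it. In mouse 1, 7.30% of all 2602 barcodes with 0.01% or more in either other mouse reached 0.01%, and the count was 19 of 79 recurring barcodes (24.1%) against 171 of 2523 barcodes of 1 mouse (6.78%). In mouse 2, where 5.00% of all reached it, the count was 16 of 113 (14.2%) against 141 of 3026 (4.66%). In mouse 3, where 6.55% of all reached it, the count was 16 of 83 (19.3%) against 176 of 2847 (6.18%). The recurring barcodes were thus higher in 3 of 3 mice, by 13.3 ± 3.89 percentage points (SD, n = 3), with p = 0.25 in a two-sided exact sign-flip permutation test, the smallest value 3 mice can give (Benjamini-Hochberg adjusted over 3 tests, 0.25).

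Of the recurring barcodes, 7, 4 and 4 reached 1% in the held-out mouse itself, so they are not members. Reads carried from that mouse into files of the others could have brought such barcodes into the choice, which was not tested. The choice may therefore not be fully independent of the held-out mouse. When a mouse at 100-fold or more under the highest share did not count as holding a barcode, the difference was 8.69 points. Without barcodes of 1% in the held-out mouse, the values were 12 of 72 (16.7%) against 6.52%, 12 of 109 (11.0%) against 4.22%, and 12 of 79 (15.2%) against 5.55%. The difference was then 8.86 ± 1.81 points (SD, n = 3). These 12 are the members of 3 mice each time, so the 3 values are not independent. Without RB001, RB002 and RB003 as well, 9 of 69, 9 of 106 and 9 of 76 reached the threshold, a difference of 5.70 ± 1.24 points (SD, n = 3).

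The summed share of the recurring barcodes in the held-out mouse differed between populations, with an eta squared of 0.846 (permutation test, p = 8.00e-05, adjusted 0.000240). With 0.02% as presence this call was lost, with an eta squared of 0.0696 (permutation p = 0.984). At 0.01% the sum was 47.4% ± 7.15 in M1 macrophages, 45.0% ± 4.81 in neutrophils, 44.0% ± 5.82 in monocytes and 16.4% ± 9.66 in B cells (SD, n = 3), and between 8.07% and 13.6% on average in the other populations. These sums were set by the barcodes that reached 1% in the held-out mouse, which are not members. Leaving out 100-fold traces gave the same eta squared, 0.822, as leaving out those barcodes. Their choice may not be independent of the held-out mouse, so the p-value of 8.00e-05 from the permutation test is no test of the members. Members themselves summed on average to 1.28% in M1 macrophages, 1.40% in neutrophils and 1.71% in monocytes. The geometric mean of the held-out sums was 14.5% in macrophage and 24.6% in blood files. This ratio of 0.589 did not pass the test (exact permutation p = 0.0966, adjusted 0.145).

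Without the barcodes of 1%, the order of the macrophage and blood means turned. Ccr2lo macrophages then held 0.895% ± 0.206, Ccr2hi macrophages 0.722% ± 0.194, M1 macrophages 0.456% ± 0.108 and M2 macrophages 0.346% ± 0.0348 (SD, n = 3). Monocytes held 0.633% ± 0.170, neutrophils 0.413% ± 0.114, B cells 0.243% ± 0.0636 and T cells 0.163% ± 0.103 (SD, n = 3). On average, M1 and M2 macrophages thus lay below monocytes, and M2 macrophages also below neutrophils. The geometric mean was 0.556% in macrophage and 0.303% in blood files, a ratio of 1.83, with macrophages higher in 3 of 3 mice. Without RB001, RB002 and RB003 as well the ratio was 2.89, and eta squared was 0.750. Both exclusions were chosen after the data were seen and use levels in the held-out mouse itself, so these values are descriptions with no test. The permutation tests of the summed share exchanged all 24 files, within and between mice, and did not use the pairing by mouse. Their p-values measure the spread between files, while files of the same mouse are not independent replicates.

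In base pattern and composition, members lay near the other barcodes. The alternation held in 215 members (91.1%), with 1 base off in 21, against 90.4% of barcodes of 1 mouse and 90.3% of barcodes reaching 1%. Members had on average 11.8 A, 11.8 C, 14.1 G and 14.2 T, against 12.1, 11.7, 14.2 and 14.0 in barcodes of 1 mouse. The nearest other member was 13 to 19 mismatches away, with a median of 16.

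Of the members, 2 lay 1 mismatch from another barcode of 0.01% or more, while the others were at least 9 mismatches from any. Here capitals mark the mismatch, and positions count from the first base listed. The substitutions are C19A between RB001 and its neighbour and C5A between RB002 and its neighbour. The pairs are shown because a sequencing or PCR error would give such a neighbour, which was not tested; they were chosen after their values were seen.
RB001: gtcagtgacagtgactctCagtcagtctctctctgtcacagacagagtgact
RB001 neighbour: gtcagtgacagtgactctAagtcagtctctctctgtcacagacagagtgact
RB002: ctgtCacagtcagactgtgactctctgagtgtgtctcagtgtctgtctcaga
RB002 neighbour: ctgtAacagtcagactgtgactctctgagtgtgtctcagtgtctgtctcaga

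The neighbour of RB001 reached 0.0110% in neutrophils of mouse 2, and at most 2.94e-05% in mouse 1 and 2.09e-05% in mouse 3. The neighbour of RB002 reached 0.0235% in monocytes of mouse 1, and at most 1.60e-05% in mouse 2 and 1.88e-05% in mouse 3. Each neighbour was thus present in 1 mouse, while its member was present in every file.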

How the data were processed

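Barcodes were amplified from genomic DNA in 18 PCR cycles and indexed in 9 to 11 more, per the labels' protocols. The deposited files hold, for 1 sample each, raw read counts of 52-base sequences; the trimming, filters and read counting are not given in the sources used here. Counts were divided by the file total to give shares, and 0.01% of reads counted as present. The members and lists were chosen with earlier results of these data known.

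Files were grouped by the population and mouse number in their titles. The overlap of shares (sum of the smaller share) was 0.410 on average over 84 pairs of files within a number and 0.0142 over 192 pairs between numbers. Same-numbered files were therefore taken as paired. Chi-square per degree of freedom between 2 files was at least 83.4, so no 2 files were counted as 1. The labels give no batch and do not name separate cultures.

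Named barcodes are the 10 members of 3 mice and the 10 of 2 mice with the highest second share, the 5 largest and 5 smallest folds, and those next to each limit. Tests were run on a mouse held out of the choice of barcodes, although reads carried between files could still link that mouse to the choice. Values after dropping barcodes by their level in that mouse are descriptions with no test. Tests used exact permutations or 100000 resamples and Benjamini-Hochberg adjustment over 3 tests (Python 3.11.15, numpy 2.4.6, scipy 1.17.1, pandas 2.3.3). The scripts were tested on simulated data. Wilson intervals are at 95%, and a count of 0 was taken to allow 3 counts. Alternatives changed the presence threshold, the upper limit, merging of 1-mismatch sequences, the pattern, depth, the number of populations, traces, the mice and the permutation block.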

Additional observations from a re-analysis of the deposited data

How the results depend on the processing

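The number of recurring barcodes, 236, became 358 with 0.005% as presence, 152 with 0.02% and 143 when 2 populations were needed, and 79 to 113 without a mouse. The number in all 3 mice, 12, became 20 at 0.005%, 7 at 0.02% and 8 when 2 populations were needed, and cannot be had without a mouse. The median fold of 2.38 ranged from 2.05 to 2.44 without a mouse. It moved with the limits of the choice, to 2.67 at 0.005% and 2.09 at 0.02% as presence. With an upper limit of 0.5% it was 2.27, and with 2% it was 2.64. The held-out detection difference kept its direction in all 16 alternatives run for it (5.70 to 17.4 percentage points). For the held-out results, a mouse left out was only not used as a held-out mouse. Its barcodes still took part in the choice for the other mice.

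The held-out macrophage to blood ratio of 0.589 turned in direction under several alternatives. It was 0.531 at 0.005% (exact permutation p = 0.00864) and 0.398 without M1 macrophages (exact permutation p = 0.00325). With 1 mouse not used as a held-out mouse, it was 0.459 to 0.711. The ratio turned to 1.39 at 0.02% (exact permutation p = 0.619) and to 1.83 with 100-fold traces left out. In alternatives chosen after seeing the data, it turned to 1.83 without barcodes of 1% in the held-out mouse and to 2.89 without the barcodes of every file as well. Since leaving out the abundant barcodes gives 1.83, they carry the ratio under 1; the cause of the other changes was not tested. Eta squared fell to 0.0696 at 0.02% (permutation p = 0.984), and ranged from 0.802 to 0.954 with 1 mouse not used as a held-out mouse. With the mouse as a replicate block, the ratio of 0.589 had p = 0.112, and eta squared had p = 0.000240, so the block changed neither call (permutations within mice). The ratios of 1.83 and 2.89 are the same under the block and have no test, since their barcodes were dropped by levels in the held-out mouse. Thinning to the shallowest file left 235 recurring barcodes. The number of mice, 3, limits every test.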
